A study of Mus musculus with 2 samples.

Results

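The 10 genes described here write, maintain, remove or guard cytosine methylation in mouse cells. They were taken by symbol from a deposited table of gene levels: the maintenance pair Dnmt1 and Uhrf1, the de novo methyltransferases Dnmt3a and Dnmt3b, their cofactor Dnmt3l, the dioxygenases Tet1, Tet2 and Tet3 with the glycosylase Tdg, and the imprint protector Zfp57. All 10 had a row, out of 14500 gene symbols in the table. RNA was sequenced from 46C embryonic stem cells, a mouse line with a fluorescent reporter at Sox1. One culture carried a vector that overexpresses the homeobox factor Gbx2 (the library titled PB-Gbx2), and the other carried the empty vector (the library titled PB). Both were grown on gelatin in serum with LIF and stood at passages 21 to 24. The labels do not name the promoter of the vector, nor say whether each culture was a clone or a pool.

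Each group has 1 library, so no value here has a replicate error and no difference was tested. The titles and source names of the 2 libraries contradict each other, the library titled PB being described as the Gbx2-overexpressing cells. Groups follow the titles, which match the table's column names apart from a suffix there, P3, that the titles lack. Gbx2 stood at a level of 1178 in the library titled PB-Gbx2 and at 345 in the library titled PB, 3.41-fold higher in PB-Gbx2. Had the source names been used, all directions below would be the opposite. Levels are deposited as whole numbers, with no statement of how they were normalized. The sorted levels of both libraries are identical in all 14501 rows, and 76.1% of the levels are even. A level thus gives the place of a gene in its library, and read depth is unknown.

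Methylation of cytosine in CpG dinucleotides is copied at each replication by Dnmt1, which Uhrf1 guides to hemimethylated sites. New methylation is placed by Dnmt3a and Dnmt3b with the help of the catalytically inactive Dnmt3l, and it is removed through oxidation by the Tet enzymes followed by base excision, which Tdg starts. Stem cells of the early mouse embryo hold little methylation in the naive state and gain it as they move towards the primed state, while Zfp57 keeps the methylation of imprinted control regions throughout.

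The promoter stretches of Dnmt3b and Zfp57, the members with the largest difference in each direction, are shown to set the 2 genes side by side in CpG content, CpG being the substrate of these enzymes. They come from RefSeq on build GRCm38.p6, whereas the reads were handled with mm9. Each is the 250 bases before a RefSeq start, on the plus strand, with every CpG in capitals. The Dnmt3b stretch is chr2:153649199-153649448. The Zfp57 stretch is chr17:37000913-37001162, before the most upstream of its 3 starts.
Dnmt3b: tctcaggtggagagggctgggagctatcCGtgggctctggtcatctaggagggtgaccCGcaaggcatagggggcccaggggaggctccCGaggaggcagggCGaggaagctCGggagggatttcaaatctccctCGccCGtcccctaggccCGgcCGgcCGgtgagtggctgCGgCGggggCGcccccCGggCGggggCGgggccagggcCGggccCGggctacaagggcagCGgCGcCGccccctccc
Zfp57: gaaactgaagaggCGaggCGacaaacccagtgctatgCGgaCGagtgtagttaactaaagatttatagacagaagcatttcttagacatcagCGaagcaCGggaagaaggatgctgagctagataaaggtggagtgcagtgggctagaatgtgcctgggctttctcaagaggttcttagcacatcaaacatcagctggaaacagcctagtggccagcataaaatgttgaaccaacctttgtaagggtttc
The Dnmt3b stretch holds 21 CpG and the Zfp57 stretch 6, against a median of 6 and quartiles of 2 and 16 over 32851 such stretches in the same table. At the other Zfp57 starts the count was 7 and 3. Over all 19 stretches of the 10 members it ran from 2, at the most upstream Dnmt1 start, to 51 at Tet2, and was 38 at the first Dnmt3a start and 5 at the first Dnmt3l start. The letters TAATTA, a core bound by many homeodomain proteins and the same on both strands, were in 4.84% of all stretches and in 0 of the 19.

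The level of Dnmt3b was much lower in the library with the Gbx2 vector, that of Zfp57 was higher, and the other 8 genes differed by less than 1.5-fold. Of the 10 genes, 0 were at least 2-fold higher and 1 was at least 2-fold lower in PB-Gbx2. Over all 14500 genes these shares were 5.14% higher and 5.26% lower (10.4% in either direction). At 1.5-fold, 1 member was higher (Zfp57) and 1 lower (Dnmt3b), beside 11.6% and 12.2% of all genes (23.8% in either direction). All 10 members have a mean level of at least 100, where ratios scatter less. Among the 10624 genes at that level, 1.93% were higher and 1.88% lower at 2-fold (3.81% in either direction), and 6.81% were higher and 7.13% lower at 1.5-fold (13.9% in either direction). A count of 1 in each direction does not set the 10 genes apart as a group from these backgrounds. The median log2 ratio of the members, PB-Gbx2 over PB, was -0.14, and that of all genes 0, with 3 members above 0, 6 below and Dnmt1 at 0. Their summed level was 65265 in PB-Gbx2 and 65834 in PB.

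**Figure D1:**
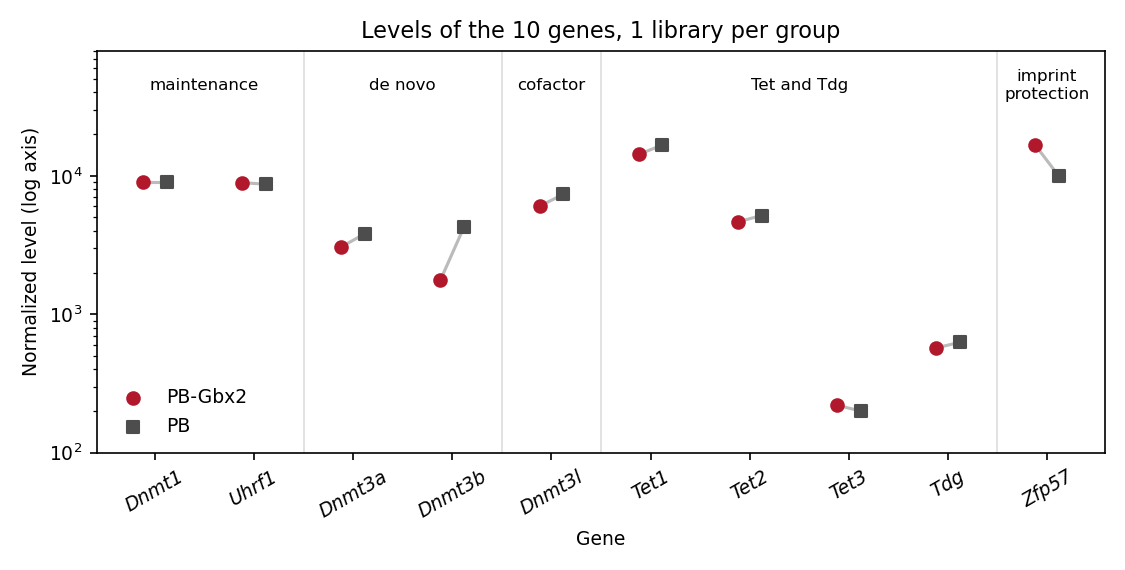
Normalized level (log axis) of each of the 10 genes in the PB-Gbx2 library (red circles) and the PB library (grey squares), grouped by role, with 1 library per group and no error bars. The pair of Dnmt3b lies farthest apart (1761 and 4290), the pair of Zfp57 runs the other way (16722 and 9905), and the points of Dnmt1 lie at one height (9088).

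Both maintenance genes stood at nearly the same level in the 2 libraries. Dnmt1, which restores methylation on the new strand, had a level of 9088 in PB-Gbx2 and of 9088 in PB, the 213th highest place in each. Exact equality was shared by 268 genes of the table. Uhrf1, which reads hemimethylated CpG and recruits Dnmt1, had a level of 8918 in PB-Gbx2 and 8690 in PB, 1.03-fold higher in PB-Gbx2. In both libraries its ratio to Dnmt1 per kilobase of transcript was close, at 1.61 in PB-Gbx2 and 1.57 in PB.

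The de novo enzymes were lower in PB-Gbx2, Dnmt3b far more than Dnmt3a. Dnmt3b, the de novo methyltransferase most abundant in the epiblast, had a level of 1761 in PB-Gbx2 and 4290 in PB, 2.44-fold lower in PB-Gbx2. Its place in the order of genes was 2218 in PB-Gbx2 and 698 in PB. Its log2 ratio was -1.28. When genes were sorted into 20 bins by mean level, the 725 genes of its bin (2528 to 4190) had an SD of 0.31. In that bin 4 genes passed 2-fold upwards and 4 downwards, and 3, Dnmt3b included, lay as far down as Dnmt3b. In the authors' deposited table Dnmt3b has a p of 9.08e-05 and an adjusted p of 0.0439, which passes 0.05 together with 0.234% of all rows. That p rests on 1 library per group. In bulk RNA, fewer cells that express a gene and less of its RNA per cell cannot be told apart.

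Dnmt3a, the second de novo methyltransferase, had a level of 3060 in PB-Gbx2 and 3826 in PB, 1.25-fold lower in PB-Gbx2. Its log2 ratio of -0.32 was about as large as the SD of genes at its level (0.31), and 75 of those 725 genes lay as far down. Dnmt3l, which has no catalytic activity of its own and stimulates both enzymes, had a level of 6024 in PB-Gbx2 and 7356 in PB, 1.22-fold lower in PB-Gbx2. Its log2 ratio of -0.29 was within the SD of its bin (0.33). Dnmt3a and Dnmt3b each have a single row, so their isoforms cannot be told apart.

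The Tet dioxygenases and Tdg differed little between the libraries. Tet1, the main Tet enzyme of embryonic stem cells, had a level of 14256 in PB-Gbx2 and 16693 in PB, 1.17-fold lower in PB-Gbx2. Tet2, which is expressed beside it in these cells, had a level of 4646 in PB-Gbx2 and 5159 in PB, 1.11-fold lower in PB-Gbx2. These ratios were smaller than the SD of the genes at their levels. Tet3, the form known from the oocyte and from differentiated cells, was low in both libraries, with a level of 220 in PB-Gbx2 and 200 in PB. Tdg, which cuts out the oxidized bases that the Tet enzymes make, had a level of 570 in PB-Gbx2 and 627 in PB, 1.10-fold lower in PB-Gbx2. Of the 4 genes, Tet3 alone was higher in PB-Gbx2, by 20 units of level.

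Zfp57 was the one member well above its PB level. This KRAB zinc finger protein binds a methylated motif at imprinted control regions and recruits the corepressor Trim28. Its level was 16722 in PB-Gbx2 and 9905 in PB, 1.69-fold higher in PB-Gbx2, and its place among all genes 81 in PB-Gbx2 and 191 in PB. Its log2 ratio was 0.76 beside an SD of 0.33 in the top bin (4195 to 70328), where 16 of 725 genes, Zfp57 included, lay as far up. In the authors' deposited table Zfp57 has a p of 0.0121 and an adjusted p of 0.742. The other members except Dnmt3b have an adjusted p of 1 there.

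**Figure D2:**
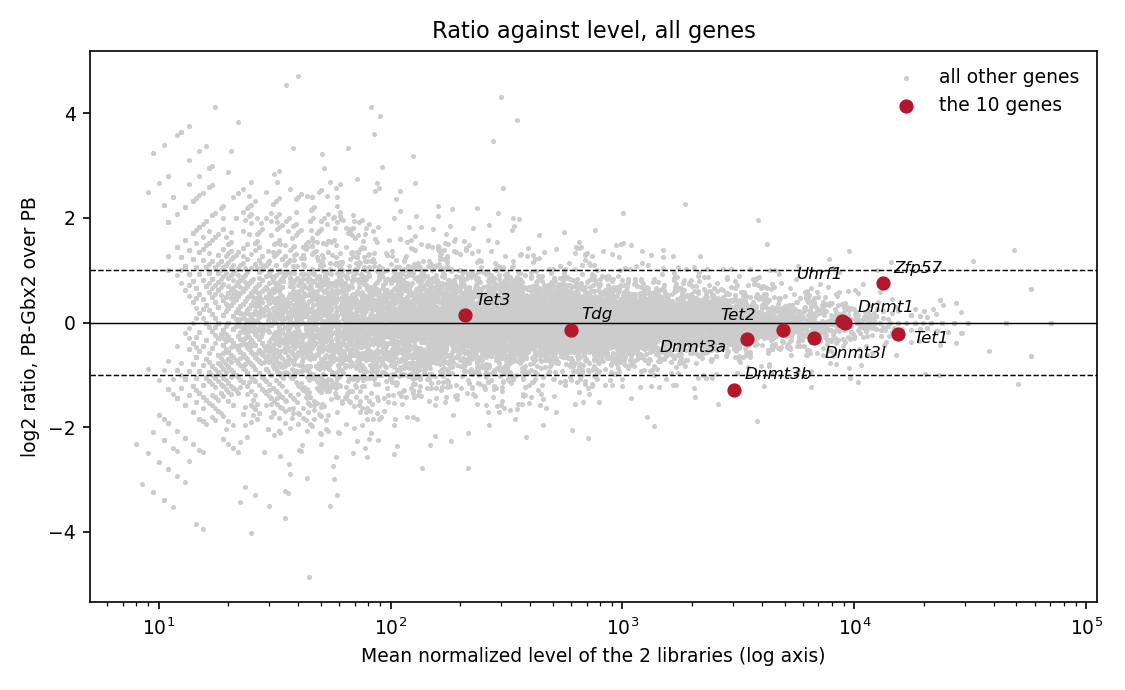
The log2 ratio (PB-Gbx2 over PB) against the mean normalized level of the 2 libraries (log axis) for all genes (grey), with the 10 genes in red and dashed lines at 2-fold. Dnmt3b lies below the lower line (-1.28), Zfp57 lies above the bulk of genes at its level (0.76), and the other 8 lie between -0.32 and 0.14.

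Set against each other, the groups of genes ran from the de novo enzymes at the low end to imprint protection at the high end. The mean log2 ratio was -0.80 for the de novo enzymes, -0.29 for the cofactor Dnmt3l, -0.09 for the Tet genes with Tdg, 0.02 for the maintenance pair and 0.76 for Zfp57. The de novo enzymes lay 0.71 below the Tet group and the maintenance pair lay 0.82 above the de novo enzymes. These gaps rested on Dnmt3b: with Dnmt3a alone as the de novo enzyme, an alternative added after the data were seen, the values were -0.23 and 0.34. The summed level of the de novo enzymes was 4821 in PB-Gbx2 and 8116 in PB, that of the Tet genes with Tdg 19692 in PB-Gbx2 and 22679 in PB, and that of the maintenance pair 18006 in PB-Gbx2 and 17778 in PB.

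Levels tended to rise with transcript length, with a median of 93.8 among the shortest of 10 equal groups of genes and 681 among the longest. The rise was not in proportion to length. The third group (1607 to 2051 bases) had a median of 318, while the longest group starts at 6571 bases. Genes were set against each other per kilobase of the longest coding transcript, and the order below depends on that division. On that scale Zfp57 came first in PB-Gbx2 (6439 per kilobase) and second in PB (3814), where Dnmt3l was first. Dnmt3l stood at 3306 per kilobase in PB-Gbx2 and 4037 in PB, Uhrf1 at 2487 in PB-Gbx2 and 2423 in PB, Dnmt1 at 1548 in both, and Tet1 at 992 in PB-Gbx2 and 1162 in PB. Dnmt3b changed places with Tet2. It was seventh at 408 per kilobase in PB-Gbx2, below Tet2 at 506, and sixth at 993 in PB, above Tet2 at 562. Dnmt3a, Tdg and Tet3 held the last 3 places in both libraries, and Tet3 was last with 20.2 per kilobase in PB-Gbx2 and 18.3 in PB. Undivided, Dnmt3l stood at 6024 and Dnmt3a at 3060 in PB-Gbx2, and at 7356 and 3826 in PB, much closer than per kilobase. With 1 library a group the spread of these places is unknown.

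The proportions between enzymes within a library follow from these levels, and where Dnmt3b is one of a pair they restate its own difference. Per kilobase, Dnmt3b stood at 1.29 times Dnmt3a in PB-Gbx2 and at 2.51 times Dnmt3a in PB. Its ratio to Dnmt1 was 0.263 in PB-Gbx2 and 0.641 in PB, and its ratio to Tet1 0.411 in PB-Gbx2 and 0.855 in PB. Dnmt3l was 8.11 times Dnmt3b in PB-Gbx2 and 4.07 times in PB. Of the other pairs computed, Dnmt3l was 10.5 times Dnmt3a in PB-Gbx2 and 10.2 times in PB, and Tet2 was 0.510 of Tet1 in PB-Gbx2 and 0.484 in PB. Zfp57 was 1.95 times Dnmt3l in PB-Gbx2 and 0.945 of it in PB. The pairs Dnmt3l over Dnmt3b, Uhrf1 over Dnmt1 and Zfp57 over Dnmt3l were added after the values were seen. How far each ratio moved between libraries does not depend on the transcript lengths used.

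**Figure D3:**
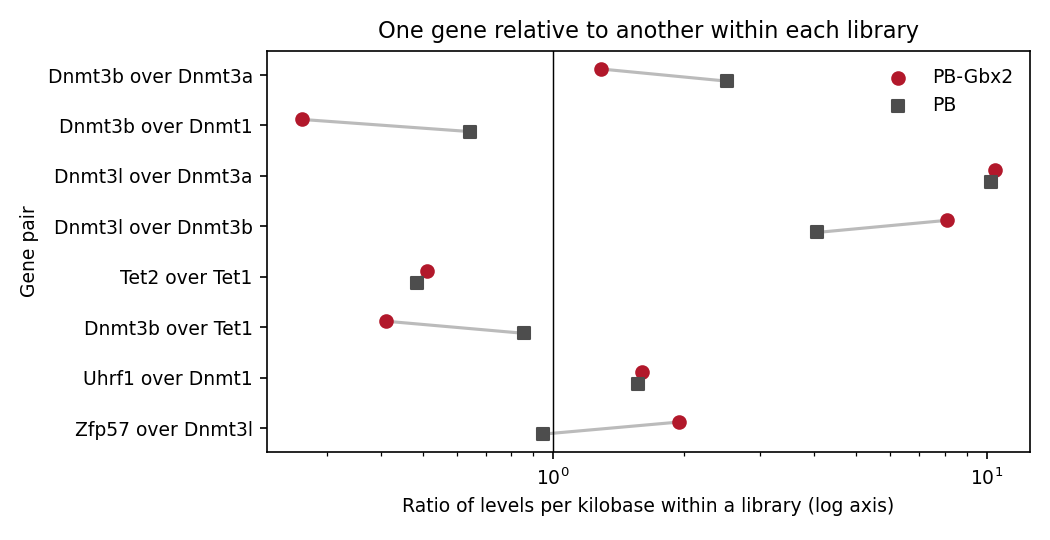
Ratio of the level per kilobase of one gene to that of another (log axis) within the PB-Gbx2 library (red circles) and the PB library (grey squares), 1 library each. The points lie apart in the 4 pairs with Dnmt3b (1.29 and 2.51 for Dnmt3b over Dnmt3a) and in Zfp57 over Dnmt3l (1.95 and 0.945), while Dnmt3l over Dnmt3a (10.5 and 10.2), Tet2 over Tet1 and Uhrf1 over Dnmt1 nearly coincide.

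The lists of partners and targets that follow were not tested, and their counts stand beside those of all genes, of which 7136 lay above 0, 7096 below and 268 at 0, with 10.4% past 2-fold in either direction and 3.81% among those at a mean level of at least 100. Of 11 partners of maintenance methylation, 1 lay above 0 and 10 below, 0 passed 2-fold, and the median log2 ratio was -0.11. Hells, a chromatin remodeller needed for methylation of repeats, had a level of 9467 in PB-Gbx2 and 14274 in PB, 1.51-fold lower in PB-Gbx2. Lig1, the replicative DNA ligase, had a level of 4925 in PB-Gbx2 and 6728 in PB, 1.37-fold lower in PB-Gbx2. Usp7, a deubiquitinase that binds Dnmt1 and Uhrf1, stood at 10938 in PB-Gbx2 and 11412 in PB. Usp7 and, below, Ehmt2, Idh1, Idh2, Idh3a, Ogt, Trim28, Setdb1, Mat2a and genes at a mean level under 100 were picked for their roles or their counts after their values were seen.

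Among 21 regulators of de novo methylation, 1 was at least 2-fold higher and 0 lower, with a median of 0.02. Prdm14, which represses Dnmt3b in mouse embryonic stem cells and also stands in the Tet list, had a level of 570 in PB-Gbx2 and 256 in PB, 2.23-fold higher in PB-Gbx2. In the authors' deposited table its adjusted p is 0.874. Mga, the scaffold of a Polycomb complex that silences germline genes, had a level of 3938 in PB-Gbx2 and 7515 in PB, 1.91-fold lower in PB-Gbx2. Ehmt2, a histone H3 lysine methyltransferase that aids de novo methylation, stood at 2937 in PB-Gbx2 and 3898 in PB.

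Among 13 partners and regulators of the Tet enzymes, 2 were at least 2-fold higher and 1 lower (23.1%, beside 10.4% of all genes), with a median of 0.14. Of the 12 at a mean level of at least 100, 2 passed 2-fold, beside 3.81% of all genes at that level. Nanog, a pluripotency factor that binds Tet1 and Tet2, had a level of 19872 in PB-Gbx2 and 8918 in PB, 2.23-fold higher in PB-Gbx2. The lower gene was the nuclear receptor Vdr at 16 in PB-Gbx2 and 35 in PB. Ogt, the glycosyltransferase that associates with Tet proteins, stood at 6334 in PB-Gbx2 and 9882 in PB. Idh1 and Idh2 make 2-oxoglutarate, the cosubstrate of Tet enzymes. Idh1 stood at 2586 in PB-Gbx2 and 1900 in PB, and Idh2 at 4010 in PB-Gbx2 and 3364 in PB. Idh3a, of the same list, went the other way, with 3018 in PB-Gbx2 and 3454 in PB.

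Of 19 base excision genes, Tdg among them, 0 were 2-fold higher and 2 lower, with a median of -0.18. One of them was the stress protein gene Gadd45g (30 in PB-Gbx2 and 120 in PB), at a level where ratios scatter widely. Among genes at a mean level of at least 100, the DNA glycosylase Neil3 (214 in PB-Gbx2 and 318 in PB) and Gadd45b, of the same family as Gadd45g (452 in PB-Gbx2 and 642 in PB) had the largest ratios, 1.49-fold and 1.42-fold lower in PB-Gbx2. Of 11 proteins that read methylated CpG, 8 lay above 0 and 3 below, with a median of 0.17. Mbd1 stood at 376 in PB-Gbx2 and 240 in PB, while the 1 gene past 2-fold was Zbtb4 at 62 in PB-Gbx2 and 16 in PB.

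Genes listed for imprint protection beside Zfp57 differed in direction. Of 12 genes listed, 1 was at least 2-fold higher and 1 lower, with a median of -0.03. Trim28, the corepressor that Zfp57 recruits, stood at 26878 in PB-Gbx2 and 21408 in PB. Setdb1, the histone methyltransferase that Trim28 brings in, stood at 3596 in PB-Gbx2 and 2506 in PB. Cbx5, the heterochromatin protein HP1 alpha, was 2.08-fold lower in PB-Gbx2, with a level of 6216 in PB-Gbx2 and 12915 in PB. Zfp42, a zinc finger gene of naive stem cells, was just past 2-fold higher, with a level of 16671 in PB-Gbx2 and 8320 in PB.

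**Figure D4:**
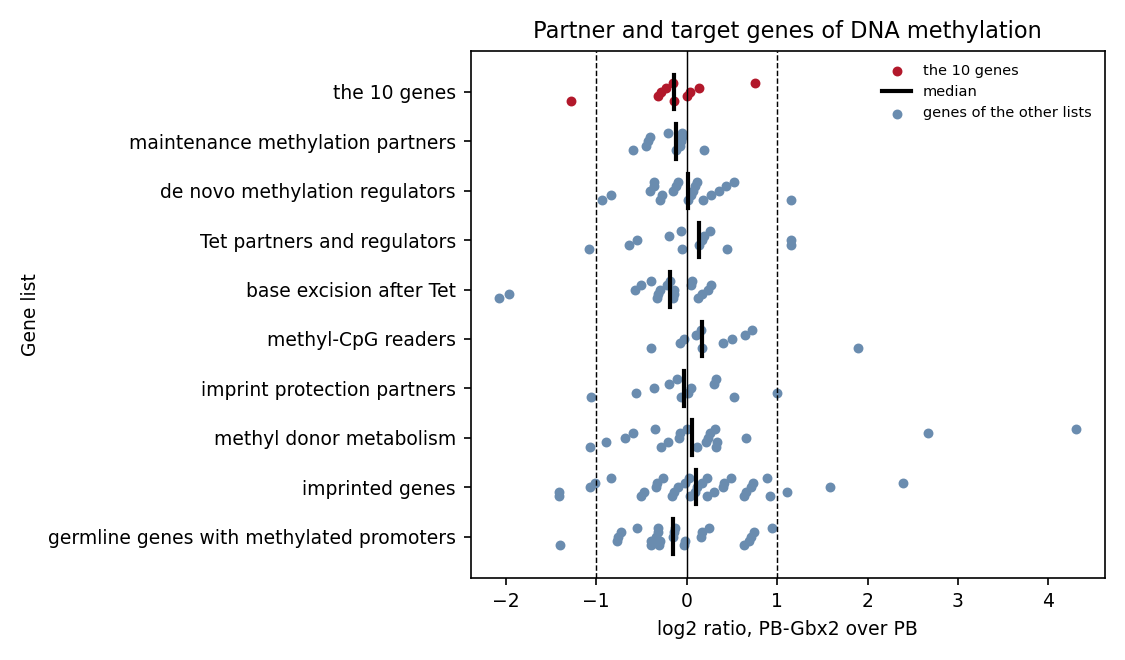
The log2 ratio (PB-Gbx2 over PB) for each gene of the 10 and of each list of partners or targets, with the list median as a black bar and dashed lines at 2-fold. The medians lie between -0.18 and 0.17, and the points farthest out belong to methyl donor metabolism, where Bhmt reaches 4.30.

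Genes that supply or use the methyl donor S-adenosylmethionine had a median of 0.06 over 20 genes, with 2 at least 2-fold higher and 1 lower. The homocysteine methyltransferases Bhmt (572 in PB-Gbx2 and 28 in PB) and Bhmt2 (222 in PB-Gbx2 and 34 in PB) were higher, and Gnmt, which uses up the donor by methylating glycine, was lower (86 in PB-Gbx2 and 182 in PB). Mat2a, which makes the donor, stood at 5159 in PB-Gbx2 and 3282 in PB.

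Genes known to be controlled by methylation showed no common direction. Of 34 imprinted genes 3 were at least 2-fold higher and 4 lower, 20.6% beside 10.4% of all genes, and the median was 0.10. At a mean level of at least 100 it was 2 of 21, beside 3.81% of all genes at that level. The 2 were Kcnq1ot1 (126 in PB-Gbx2 and 336 in PB), a long RNA transcribed from an imprinted control region, and its neighbour Cdkn1c (276 in PB-Gbx2 and 734 in PB). The others past 2-fold were Peg12, Magel2 and Dlk1, higher, and Nnat and Zim1, lower, with levels of at most 100. Of 25 germline genes whose promoters are methylated in somatic cells, 0 were at least 2-fold higher and 1 was lower, with 8 above 0, 17 below and a median of -0.15. The 1 was Tdrd1 at 18 in PB-Gbx2 and 49 in PB. Stra8, a gene of meiotic entry, stood at 441 in PB-Gbx2 and 754 in PB, and Tex11, a meiotic gene, at 123 in PB-Gbx2 and 204 in PB.

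Both libraries held high levels of embryonic stem cell markers. All 14 listed were in the table, with a summed level of 137043 in PB-Gbx2 and 98853 in PB, with 10 above 0 and 4 below. At least 2-fold higher in PB-Gbx2 were 5 and lower 0, beside 1.93% and 1.88% of all genes at a mean level of at least 100. Beside Nanog and Zfp42 these were Klf4 (10924 in PB-Gbx2 and 4701 in PB), Tbx3 (6107 in PB-Gbx2 and 3029 in PB) and Fbxo15 (2753 in PB-Gbx2 and 1324 in PB). The 4 below 0, named after their values were seen, were Epcam (1288 in PB-Gbx2 and 2050 in PB), Lin28a (2863 in PB-Gbx2 and 4206 in PB), Utf1 (3430 in PB-Gbx2 and 3843 in PB) and Tfcp2l1 (11892 in PB-Gbx2 and 12900 in PB). The 10 epiblast markers in the table, Dnmt3b among them, had a median of -0.24, with 3 above 0 and 7 below. The 2 at least 2-fold lower were Dnmt3b and Krt18 (164 in PB-Gbx2 and 363 in PB). The 3 above 0, named after their values were seen, were Sox3 (30 in PB-Gbx2 and 3 in PB), Cd24a (980 in PB-Gbx2 and 768 in PB) and Dusp6 (632 in PB-Gbx2 and 602 in PB). Otx2, also named afterwards, stood at 373 in PB-Gbx2 and 492 in PB. Of the markers of other cell types, 6 of 9 neural progenitor genes were in the table, with a summed level of 2514 in PB-Gbx2 and 3164 in PB (Nes 733 in PB-Gbx2 and 405 in PB, Elavl3 427 in PB-Gbx2 and 756 in PB). Of these 6 genes, 2 lay above 0 and 4 below. The 1 past 2-fold was Sox1, higher in PB-Gbx2 (56 in PB-Gbx2 and 10 in PB), at a level where ratios scatter widely. For primitive endoderm 7 of 10 genes were in the table, with a summed level of 7975 in PB-Gbx2 and 6947 in PB (Lama1 2121 in PB-Gbx2 and 1489 in PB, Col4a1 1954 in PB-Gbx2 and 1536 in PB). Of these, 6 lay above 0 and 1 below. The 1 below, named after its values were seen, was Sparc (3606 in PB-Gbx2 and 3757 in PB). For mesoderm 5 of 8 genes were in the table, with 637 in PB-Gbx2 and 252 in PB (Kdr 226 in PB-Gbx2 and 24 in PB, Snai1 154 in PB-Gbx2 and 76 in PB). For trophectoderm it was 5 of 9, with 3039 in PB-Gbx2 and 2348 in PB (Tfap2c 2439 in PB-Gbx2 and 1441 in PB, Krt8 225 in PB-Gbx2 and 532 in PB). Without Tfap2c the trophectoderm sum was 600 in PB-Gbx2 and 907 in PB, and 3 of the 5 genes lay below 0. For fibroblasts 6 of 13 genes were in the table, with 72320 in PB-Gbx2 and 29587 in PB. Most of that was Fn1 (70328 in PB-Gbx2 and 26866 in PB), which stem cells also express, while Thy1 stood at 492 in PB-Gbx2 and 866 in PB. The Fn1 level in PB-Gbx2 is the highest value of the table, and 10 rows hold it, so genes at that level cannot be ordered. The part of these cell types in the levels of the 10 genes was not tested.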

How the data were processed

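Per the labels' protocols, Trizol was used to harvest RNA, and a TruSeq kit for the libraries. Per the submitters' processing notes, reads were handled with STAR and mm9. For versions, annotation, counting tool and normalization, nothing is stated in the labels or headers. The deposited levels were taken as scores: whole numbers with identical sorted values in both libraries, as after normalization to one distribution. The deposited ratio and its log2 run PB over PB-Gbx2, and the deposited p-values come from the authors and rest on 1 library per group. Ratios (PB-Gbx2 over PB, log2 scale) were computed on level + 1, over 14500 symbols (rows sharing a symbol were summed). A gene was called at 2-fold, with no test and no p-value of its own. The SD of ratios among genes of similar level (20 bins of equal size) is given as a description. Depth is unknown, so no counting interval or floor is given.

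Lengths came from the longest coding GENCODE M21 transcript, matched for 14160 symbols (97.7%), and promoter stretches from RefSeq (10 of 10 members). The 10 members and all lists were chosen with earlier results of these data known. Named genes are Gbx2, the members and, per list, genes past 2-fold at a mean level of at least 100, or the 2 largest ratios there if fewer than 2 passed. Some genes stand in more than 1 list, and some genes under this rule are left unreported. The design had set no unit; its measure suits any linear level. Alternatives were other pseudocounts, rescalings, limits, minimum levels and ways to sum a group. Python 3.11.15, numpy 2.4.6, pandas 2.3.3 and matplotlib 3.10.9 were used.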

Additional observations from a re-analysis of the deposited data

How the results depend on the processing

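Of 115 results for the members and the groups of genes under other settings, 114 moved by less than 1.5-fold (counts by at most 1.5 times) and 0 turned direction past 2-fold. The exception was the count of members called higher in PB-Gbx2, which was 1 (Zfp57) with a 1.5-fold limit in place of 0. A turn could be counted only where the main value was at least 2-fold. Rescaling cannot move a difference between groups of genes, so the tally is a weak check. With Dnmt3a alone as the de novo enzyme, the log2 gap to Dnmt3l went from -0.515 to -0.0341, which still counted as under 1.5-fold. A pseudocount of 0.1 or 5 moved the members' log2 ratios by at most 0.0026, and setting the median of all genes to 0 moved none, since the deposited levels already share one distribution. Setting the mean of 86 ribosomal protein genes to 0 lowered every ratio by 0.05, which put Dnmt1 at -0.05 and Uhrf1 at -0.01. All 80 results for medians of other lists moved by less than 1.5-fold, but some changed sign. With only genes at a mean level of at least 100, the trophectoderm median went from -0.38 to 0.18. The fibroblast median went from 0.20 to -0.26, and that of the imprint protection list from -0.03 to 0.01. Without Dnmt3b, an alternative added after the data were seen, the members' median was -0.14. Levels have steps at the top: the next level above that of Zfp57 in PB-Gbx2 is 9.36% higher, and in PB 3.64%. Depth is unknown, and any difference in the overall distribution of the libraries was removed before deposit. No paired analysis was possible because there is 1 library in each group, so leaving 1 out was not run either.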
